A study of Mus musculus with 4 samples.

Results

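The genes of the PD-1 axis and of the CD28 family were followed across the cell classes of mouse tumours. They were taken by symbol from the gene lists of the deposited matrices, and are 9 of the 55450 features: the receptors Pdcd1, Cd28, Ctla4 and Icos, and the ligands Cd274, Pdcd1lg2, Cd80, Cd86 and Icosl. The tumours had been grown from MC38, a mouse colon carcinoma line, injected under the skin of the left flank of 8-week-old C57BL/6J mice. The injected cells were Hnrnpa2b1 KO in one group (KO tumours) and Hnrnpa2b1 WT in the other (WT tumours), and all mice were otherwise described alike. Hnrnpa2b1 encodes an RNA-binding protein, and the series addresses its part in immune evasion. Droplet single-cell RNA sequencing with unique molecular identifiers (UMIs) gave 1 library from each of 2 WT and 2 KO tumours. The sources used here do not give whether the KO cells were 1 clone or whether each tumour came from its own mouse. The p-values therefore measure only the spread between these tumours.

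A T cell needs, beside its antigen receptor, a second signal through CD28, which binds CD80 (encoded by Cd80) and CD86 (encoded by Cd86) on antigen-presenting cells. CTLA-4 binds the same ligands more tightly and holds the response back. ICOS is an inducible relative of CD28 with its own ligand (encoded by Icosl), and PD-1 (encoded by Pdcd1) recruits phosphatases that damp antigen receptor signalling when it meets PD-L1 (encoded by Cd274) or PD-L2 (encoded by Pdcd1lg2). Interferon-gamma is the best known inducer of PD-L1 on tumour and myeloid cells.

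In the GENCODE vM21 annotation of GRCm38, 3 of the receptor genes lie in a row on the plus strand of chromosome 1. Cd28 spans chr1:60716800-60773359, Ctla4 spans chr1:60887000-60915832 and Icos spans chr1:60977927-61000320, with 113.64 and 62.1 kb between neighbours and 0 protein-coding genes in either gap. Pdcd1 lies on the minus strand at chr1:94038305-94052553. The PD-1 ligand genes are also neighbours: Cd274 at chr19:29367455-29388095 and Pdcd1lg2 at chr19:29410919-29471161, both on the plus strand and 22.8 kb apart. Cd80 lies at chr16:38455561-38496335 (plus), Cd86 at chr16:36603869-36666081 (minus) and Icosl at chr10:78069302-78083913 (plus). Exons of the antisense gene AC119228.1 overlap those of Cd274, and the sources used here do not give the strand setting of the counting. Reads of the 2 genes might therefore not be told apart.

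Promoter sequences of 6 of the 9 genes were found in the RefSeq table of GRCm38.p6, from 250 bases before to 50 bases after the start site. Those of the neighbouring genes Cd274 and Pdcd1lg2, whose levels in phagocytes are compared below, and of Cd80 are shown 5′ to 3′ on the gene's strand.
Cd274 promoter, chr19:29367188-29367487 (plus): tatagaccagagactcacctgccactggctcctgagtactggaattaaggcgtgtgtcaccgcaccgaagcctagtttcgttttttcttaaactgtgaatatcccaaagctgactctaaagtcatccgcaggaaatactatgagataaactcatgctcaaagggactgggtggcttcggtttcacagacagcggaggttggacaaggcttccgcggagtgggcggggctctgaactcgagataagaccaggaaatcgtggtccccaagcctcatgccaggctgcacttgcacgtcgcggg
Pdcd1lg2 promoter, chr19:29410669-29410968 (plus): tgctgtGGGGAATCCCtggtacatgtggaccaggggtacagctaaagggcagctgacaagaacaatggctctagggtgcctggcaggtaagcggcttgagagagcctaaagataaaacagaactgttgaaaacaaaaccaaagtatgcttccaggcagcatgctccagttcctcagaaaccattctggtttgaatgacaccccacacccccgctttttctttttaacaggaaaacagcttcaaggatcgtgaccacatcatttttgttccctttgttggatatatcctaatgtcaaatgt
Cd80 promoter, chr16:38458683-38458982 (plus): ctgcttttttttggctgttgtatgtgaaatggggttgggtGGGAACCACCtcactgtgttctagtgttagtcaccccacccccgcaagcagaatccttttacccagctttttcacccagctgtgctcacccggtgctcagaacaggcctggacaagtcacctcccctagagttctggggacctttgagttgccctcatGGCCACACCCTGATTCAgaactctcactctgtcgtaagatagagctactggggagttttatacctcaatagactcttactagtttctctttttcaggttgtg
Capitals mark matches, on either strand, to 4 motifs: an interferon-stimulated response element (GAAA and GAAA with any 2 bases between), a gamma-activated site (TTCNNNGAA), an NF-kB site (GGG and CC with any 5 bases between) and an AP-1 site (TGANTCA). The Cd274 window held no match to these letters. The Pdcd1lg2 window held an NF-kB match, GGGGAATCCC, that starts 244 bases before the start site and reads as a match on both strands. In the Cd80 window NF-kB matches start 210 and 52 bases before the start site, and an AP-1 match follows the second of them directly. These motifs were found in 3.44%, 8.30%, 50.8% and 7.81% of 32851 promoters of the same length, so an NF-kB match by these letters is common.

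Cells analysed numbered 8648 to 11344 per tumour, with 114136609 to 153162562 UMIs per library, and 23 to 43 cell barcodes were shared between any pair of libraries. Clusters were named from marker genes, so that each class name below stands for cells like that type. No cluster could be named tumour-like from epithelial markers, and clusters low in both Xist, an RNA of the inactive X chromosome, and Ptprc, the leukocyte antigen CD45, are called Xist-low cells. In Xist-low cells Hnrnpa2b1 measured 548 and 546 CPM (UMI counts of a gene scaled to the UMI total of the class) in WT tumours 1 and 2, and 379 and 320 CPM in KO tumours 1 and 2. Its RNA was thus lower but present in KO tumours, and where the edit lies in the transcript is not given in the sources used here. Hnrnpa2b1 was also lower in both KO tumours in phagocytes, neutrophils, dendritic cells, fibroblasts and regulatory T cells. In fibroblasts it measured 373 and 358 CPM in WT tumours against 309 and 294 CPM in KO tumours. Margins were narrow in phagocytes, at 411 and 425 CPM in WT tumours against 409 and 329 CPM in KO tumours. Dendritic cells held 453 and 440 CPM in WT tumours against 415 and 436 CPM in KO tumours. The neutrophil sums, at 437 and 523 CPM in WT tumours against 354 and 378 CPM in KO tumours, include the large cells described below. Hnrnpa2b1 was not measured without these cells. The groups overlapped in CD8 T, CD4 T, gamma-delta T and NK cells. All values below are CPM of the UMI sum of a class in 1 tumour, given for tumour 1 and then tumour 2 of a group. In neutrophils, 35 cells with more than 5 times the median UMIs of the class stood apart. They held 35.8% and 55.5% of the class's UMIs in WT tumours and 15.3% and 12.5% in KO tumours. S100a8, a defining neutrophil RNA, measured 837 and 943 CPM in them against 14168 and 10819 CPM in the other neutrophils of the WT tumours. Neutrophil results of the 9 genes are therefore given with and without them, an alternative chosen after the data were seen.

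Over all cells of a tumour, each of the 9 genes was higher in KO tumours and passed the test (edgeR's quasi-likelihood test, Benjamini-Hochberg adjusted p under 0.05 over all genes tested), where 17.5% of 20154 genes passed in either direction and 12.8% passed as higher in KO. Icos gave the largest fold and Icosl the smallest. Icos measured 6.71 and 9.53 CPM in WT tumours against 120.2 and 70.4 CPM in KO tumours. Neither KO tumour came near the WT tumours, and the log2 fold change of KO against WT was 3.43 ± 0.30 (standard error), adjusted p = 0.00478. Cd274 measured 11.5 and 26.7 CPM in WT tumours against 129 and 77.3 CPM in KO tumours (log2 fold change 2.31 ± 0.43), with adjusted p = 0.0212. For Icosl, a log2 fold change of 1.17 ± 0.29 (adjusted p = 0.0419) came from 1.45 and 1.82 CPM in WT tumours against 4.81 and 3.19 CPM in KO tumours. In such sums, more cells of a type and more RNA per cell cannot be told apart. Xist-low cells numbered 8637 and 7126 in WT tumours and 1423 and 2693 in KO tumours. Phagocytes numbered 1511 and 1635 against 3344 and 2515, and CD8 T cells 95 and 100 against 989 and 946.

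**Figure D1:**
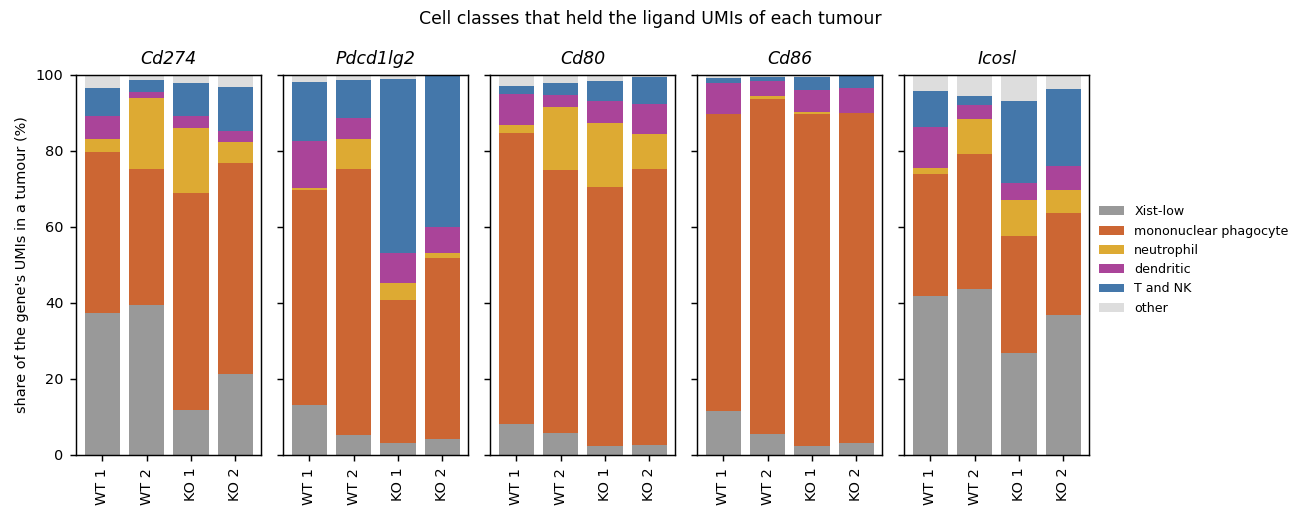
Share of each ligand gene's UMIs (vertical axis, percent) held by 6 groups of cell classes in each of the 4 tumours (horizontal axis). Mononuclear phagocytes held 35.6% to 57.3% of the Cd274 UMIs and Xist-low cells 11.7% to 39.5%, while phagocytes held 78.0% to 88.2% of the Cd86 UMIs.

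Phagocytes held most UMIs of Cd80 and Cd86 in each tumour, while those of the other ligands were spread over more classes. Mononuclear phagocytes held 42.3% and 35.6% of the Cd274 UMIs in WT tumours and 57.3% and 55.3% in KO tumours, and Xist-low cells held 37.4% and 39.5% against 11.7% and 21.4%. For Cd86 the phagocyte share was 78.0% to 88.2% in the 4 tumours, and for Cd80 it was 68.1% to 76.5%. Of the Pdcd1lg2 UMIs, phagocytes held 56.3% and 70.1% in WT tumours and 37.6% and 47.6% in KO tumours, and CD8 T cells 3.67% and 3.02% against 22.3% and 18.4%. CD8 T cells held a larger part of the receptor UMIs in KO tumours: their share of the Icos UMIs was 10.9% and 19.3% in WT tumours and 49.1% and 42.5% in KO tumours, and of the Pdcd1 UMIs 39.0% and 48.8% against 68.1% and 61.3%. Cell numbers of the class were higher as well, as given above.

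Levels differed widely between classes, and several neighbours in the order did not differ beyond the spread of the 4 tumours. Cd274 was highest in neutrophils, at 934 to 1586 CPM without the large cells, above the range of every other class. Dendritic cells (200.3 to 419 CPM), phagocytes (82.6 to 304 CPM), regulatory T cells (91.2 to 219 CPM), gamma-delta T cells (91.3 to 197 CPM) and NK cells (57.1 to 138 CPM) came next with overlapping ranges, and Xist-low cells were lowest at 4.80 to 28.1 CPM. Pdcd1lg2 was highest in dendritic cells, at 134 to 155 CPM, above the range of each other class. Cd86 was highest in dendritic cells (253 to 436 CPM) and phagocytes (137 to 277 CPM), which overlapped, and at most 31.2 CPM in any tumour of the other classes. Cd80 was highest in neutrophils without large cells (117 to 280.3 CPM), dendritic cells (56.9 to 132 CPM) and phagocytes (30.9 to 64.3 CPM), each overlapping the next. Icosl was highest in neutrophils and dendritic cells and had 0 UMIs in gamma-delta T cells.

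Among receptors, Pdcd1 was highest in gamma-delta T cells (222 to 599 CPM) and CD8 T cells (232 to 269.7 CPM), which overlapped. CD4 T cells (173 to 209 CPM) lay below CD8 T cells and above regulatory T cells (32.2 to 60.8 CPM) without overlap. Ctla4 had the order regulatory T (686 to 923 CPM), CD4 T (306 to 641 CPM) and CD8 T (154 to 303 CPM), with no overlap between neighbours. Icos was highest in regulatory T cells (1183 to 2491 CPM), with gamma-delta, CD4 and CD8 T cells following in overlapping ranges. Cd28 ranges overlapped between regulatory, CD4 and CD8 T cells, and gamma-delta T cells held at most 28.9 CPM.

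**Figure D2:**
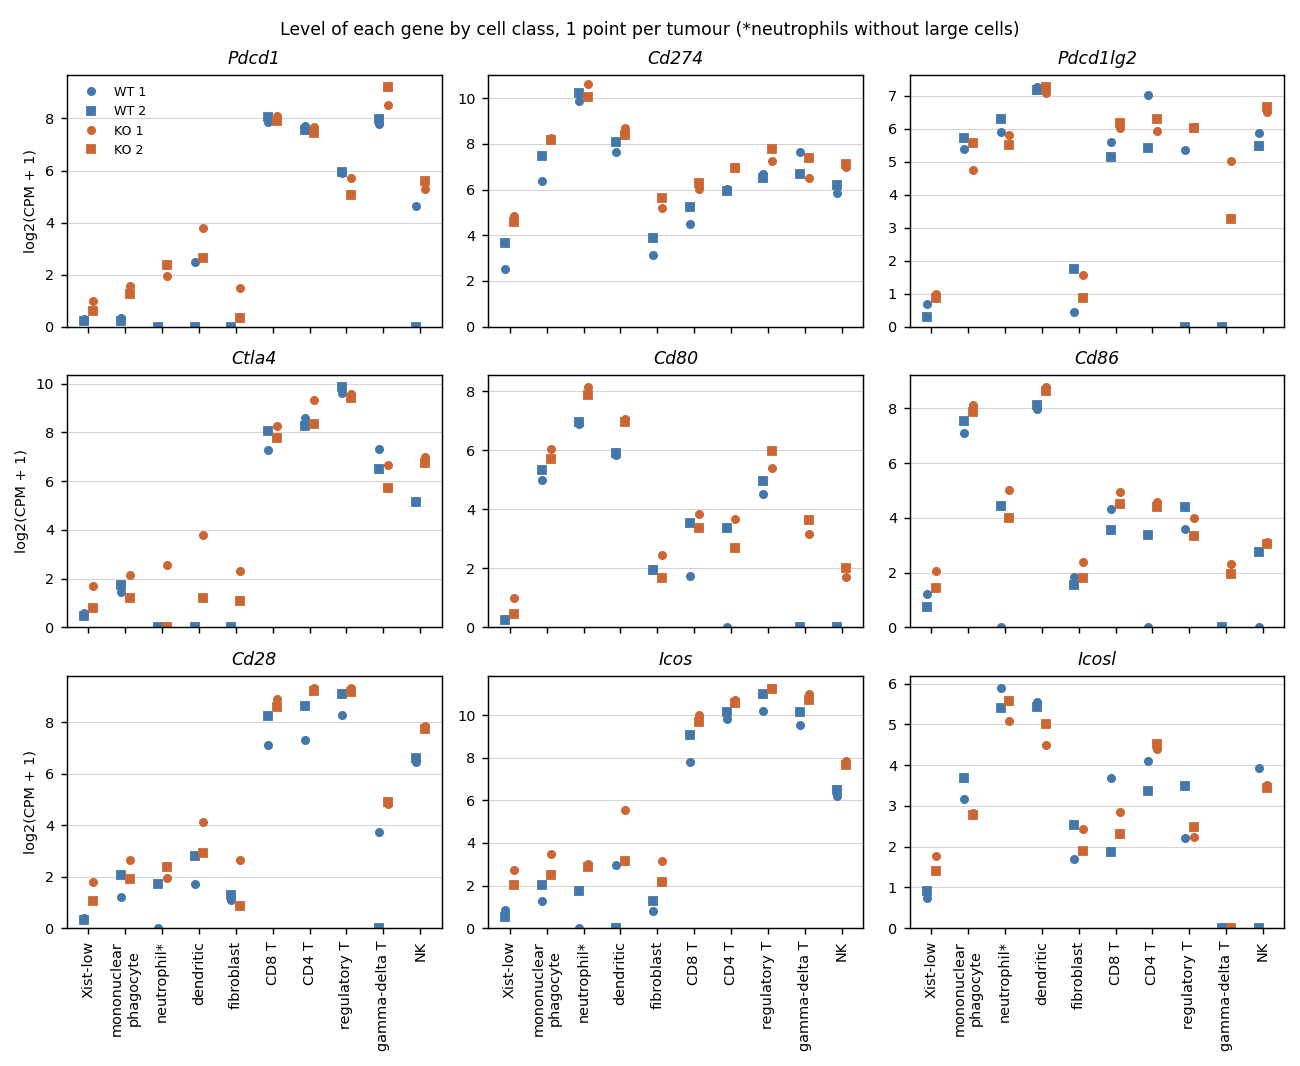
Level of each of the 9 genes as log2(CPM + 1) (vertical axes) in 10 cell classes (horizontal axes), 1 point per tumour, circles for tumour 1 and squares for tumour 2 of each group. Cd274 is highest in neutrophils (934 to 1586 CPM without large cells), Ctla4 in regulatory T cells (686 to 923 CPM), and Icos in KO tumours lies above the WT tumours in CD8 T, CD4 T, gamma-delta T and NK cells.

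The genes whose levels over 48 sums of a class in a tumour were most like each member, by Pearson correlation of log2(CPM + 1) among 15842 genes, were Ccrl2 (0.88) for Cd274, Cd2 (0.97) for Ctla4, Cd3e (0.97) for Icos, Cxcr6 (0.95) for Pdcd1 and Cd2 (0.95) for Cd28. They were Rbm47 (0.91) for Cd80, Ms4a6c (0.88) for Cd86, Ncf4 (0.82) for Pdcd1lg2 and Il1r2 (0.78) for Icosl. Sums of 1 tumour share a library, and these values describe the pattern over classes only. Among members, Ctla4 and Icos were most alike (0.96), while the neighbouring ligand genes Cd274 and Pdcd1lg2 had 0.58.

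Within classes, 65 of the 90 pairs of gene and class held enough UMIs for the test, and 10 passed, each higher in KO. Beside each count stands the percent of all genes tested in the class that passed in either direction, and then the percent that passed as higher in KO. Xist-low cells had 3 of 9 members (7.82% and 4.01% of genes), and neutrophils 2 of 4 (33.3% and 19.1%). NK cells had 4 of 7 (4.94% and 2.67%), and gamma-delta T cells 1 of 4 (5.52% and 4.37%). None of 9 passed in phagocytes (0% and 0%) or CD8 T cells (0.62% and 0.372%). None of 8 passed in CD4 T cells (0.499% and 0.289%), none of 7 in regulatory T cells (2.73% and 1.67%), none of 5 in dendritic cells (0.44% and 0.236%) and none of 3 in fibroblasts (0% and 0%). In these 6 classes 5, 4, 3, 2, 3 and 2 members had an unadjusted p under 0.05 in edgeR's test, in the order given, and DESeq2 called 1 in phagocytes, 1 in fibroblasts and 0 in the other 4. Over all genes, edgeR called 0 in phagocytes, where 2496 had an unadjusted p under 0.05 and DESeq2 called 324 as higher and 231 as lower, and 0 in fibroblasts, where 1496 had one and DESeq2 called 105 as higher and 46 as lower. The phagocyte count was not stable: edgeR called 664 as higher and 804 as lower with doublets kept, 880 and 754 without a filter on low counts, and 106 and 86 without WT tumour 1, 1028 and 908 without WT tumour 2, 110 and 190 without KO tumour 1 and 182 and 163 without KO tumour 2. The median log2 fold change over the 65 pairs was 0.85, against class medians of all genes between -0.04 and 0.04, and 54 of the 65 fitted values were positive. With the large cells kept in neutrophils, both KO tumours lay above both WT tumours in 45 of the 65, below in 4 and overlapped in 16. The percent of all genes with both KO tumours above was 33.4% in Xist-low cells, 22.5% in phagocytes, 27.3% in neutrophils, 22.8% in dendritic cells and 18.3% in fibroblasts. It was 32.5% in CD8 T, 30.1% in CD4 T, 26.3% in regulatory T, 28.1% in gamma-delta T and 35.7% in NK cells, and 37.6% over all cells.

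**Figure D3:**
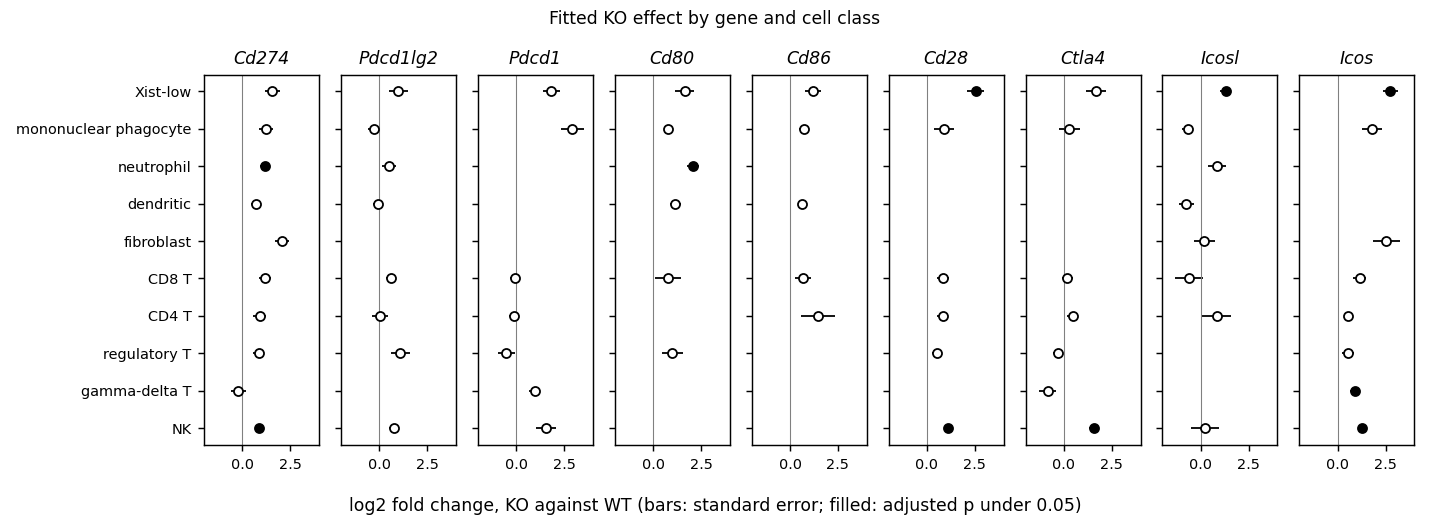
Fitted log2 fold change of KO against WT (horizontal axes) with its standard error (bars) for each gene (panels) in 10 cell classes (vertical axis). Filled points are the 10 that passed an adjusted p of 0.05, all to the right of 0, and pairs with too few UMIs for the test are left blank.

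With the large cells kept in neutrophils, Cd274 lay higher in both KO tumours than in both WT tumours in 9 of 10 classes, gamma-delta T cells being the exception. By class, 18.3% to 35.7% of all genes had this order. Without the large cells the neutrophil groups overlapped too. This PD-1 ligand passed the test in neutrophils, with large cells kept, and in NK cells. Phagocytes, the main source of Cd274 UMIs, held 82.6 and 176 CPM in WT tumours against 304 and 291 CPM in KO tumours. The groups did not overlap, with a log2 fold change of 1.25 ± 0.37, but the call was not made (adjusted p = 0.161), and WT tumour 1 lay well below WT tumour 2. Each of the 4 phagocyte clusters was then fitted alone, an alternative chosen after the data were seen. Cluster 4, led by Chil3 and Mmp12, held 85.1 and 154 CPM in WT tumours against 240.0 and 322 CPM in KO tumours, and there Cd274 rose by 1.16 ± 0.30 on the log2 scale (adjusted p = 0.0335), a call lost without KO tumour 2 (adjusted p = 0.162). Cluster 0, led by Nos2, Ly6i and Arg1, held the most, 194 and 327 CPM in WT tumours against 404 and 371 CPM in KO tumours, and differed less (log2 fold change 0.57 ± 0.28, adjusted p = 0.531). Cluster 16, led by Retnla and Ear2, held 60.1 and 45.4 CPM in WT tumours against 61.1 and 68.6 CPM in KO tumours, with the KO tumours just above the WT tumours (log2 fold change 0.28 ± 0.32, adjusted p = 0.842). Cluster 10, with 25.3% and 11.01% of the phagocytes of WT tumours and 17.3% and 31.7% of those of KO tumours, held 54.5 and 119 CPM in WT tumours against 162 and 189 CPM in KO tumours, also without overlap and without a call (log2 fold change 1.05 ± 0.34, adjusted p = 0.142). Cluster 0 made up 9.73% and 22.0% of the phagocytes of WT tumours and 53.6% and 49.6% of those of KO tumours. Cluster 4 made up 55.0% and 46.2% against 16.1% and 15.6%, so that the largest cluster of the class differed between the 2 groups.

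Pdcd1lg2, the second PD-1 ligand, did not show the order of Cd274 in phagocytes. The class held 40.5 and 51.4 CPM in WT tumours against 26.1 and 46.3 CPM in KO tumours, with overlapping groups (log2 fold change -0.28 ± 0.32, adjusted p = 0.682). In cluster 4, where Cd274 rose, Pdcd1lg2 measured 36.9 and 43.8 CPM in WT tumours against 15.8 and 15.1 CPM in KO tumours. Both KO tumours were lower there, and it fell, with a log2 fold change of -1.44 ± 0.30 (adjusted p = 0.0150), a call lost without KO tumour 1 (adjusted p = 0.103). Cluster 0 gave 75.5 and 87.2 CPM in WT tumours against 32.1 and 58.8 CPM in KO tumours, also without overlap, and did not pass (log2 fold change -0.83 ± 0.31, adjusted p = 0.413). In cluster 10 the groups overlapped, with 32.5 and 41.6 CPM in WT tumours against 18.2 and 33.9 CPM in KO tumours (log2 fold change -0.47 ± 0.34, adjusted p = 0.502). Dendritic cells, the class with the highest level, held 155 and 143 CPM in WT tumours against 134 and 153 CPM in KO tumours, a log2 fold change of -0.07 ± 0.24. For Cd274 the same dendritic sums held 200.3 and 274 CPM in WT tumours against 419 and 336 CPM in KO tumours (log2 fold change 0.70 ± 0.26, adjusted p = 0.253). In CD8 T cells Pdcd1lg2 measured 47.4 and 34.6 CPM in WT tumours against 64.6 and 71.1 CPM in KO tumours (log2 fold change 0.62 ± 0.26, adjusted p = 0.261).

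Neutrophils, short-lived granulocytes, held 625 and 551 CPM in WT tumours against 1350.5 and 924 CPM in KO tumours of Cd274 when all cells of the class were summed. It rose by 1.20 ± 0.26 on the log2 scale (adjusted p = 9.43e-04). Without the 35 large cells the values were 934 and 1187 CPM in WT tumours against 1586 and 1056 CPM in KO tumours, the groups overlapped, and the log2 fold change was 0.29 ± 0.34 with adjusted p = 0.701. Cd80 kept its order. It measured 74.9 and 56.1 CPM in WT tumours against 238 and 203 CPM in KO tumours in all cells (log2 fold change 2.10 ± 0.31, adjusted p = 2.90e-05). Without the large cells it measured 117 and 124 CPM in WT tumours against 280.3 and 232 CPM in KO tumours, where the log2 fold change was 1.03 ± 0.33 with adjusted p = 0.0905. The neutrophil sum of WT tumour 1 held only 50 cells, and without KO tumour 1 neither gene passed (adjusted p = 0.0828 for Cd274 and 0.0545 for Cd80). With doublets kept, at clustering resolution 2 and after free RNA subtraction they did not pass either (adjusted p = 0.963, 0.933 and 0.278 for Cd274, and 0.328, 0.320 and 0.0739 for Cd80). Markers of other cells differed in the same sums: 9 of 10 phagocyte markers rose, from a sum of 699 and 484 CPM in WT tumours to 1612 and 1586 CPM in KO tumours, with a median log2 fold change of 1.94. Of the neutrophil markers 7 of 8 rose and all 4 cycling markers fell, and the part of these differences in the Cd274 and Cd80 values was not tested. The difference of the Cd274 effect between neutrophils and phagocytes was 0.12 ± 0.40 on the log2 scale (adjusted p = 0.918), and -0.50 without large cells. Pdcd1lg2 and Icosl, which did not pass, also changed sign without large cells, from 0.51 ± 0.38 and 0.85 ± 0.47 to -0.61 ± 0.38 and -0.28 ± 0.46.

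Xist-low cells held 4.80 and 11.8 CPM in WT tumours against 28.1 and 22.9 CPM in KO tumours of Cd274. Both KO tumours lay above both WT tumours, with a log2 fold change of 1.57 ± 0.37 that fell short of the call (adjusted p = 0.0520). Its difference from the effect in phagocytes was 0.33 ± 0.19 (adjusted p = 0.365). The clusters behind these sums were not the same in both groups. Cluster 5, led by Gja4, Cxcl10 and Nppb, made up 1.77% and 3.66% of the Xist-low cells of WT tumours and 61.6% and 45.0% of those of KO tumours. Within cluster 5 the level was 22.1 and 37.4 CPM in WT tumours against 32.0 and 31.2 CPM in KO tumours, with overlapping groups and a log2 fold change of 0.01 ± 0.18 (adjusted p = 0.984). Cluster 9, a cycling cluster, and cluster 13, led by Iigp1 and Ubd, also overlapped. Cluster 9 held 10.9 and 17.9 CPM in WT tumours against 13.6 and 12.7 CPM in KO tumours, and cluster 13 held 19.7 and 27.6 CPM in WT tumours against 24.3 and 26.5 CPM in KO tumours. In clusters 1, 2 and 7, which held few KO cells, both KO tumours were above both WT tumours at low levels, as in cluster 7 with 2.74 and 2.92 CPM in WT tumours against 10.2 and 9.09 CPM in KO tumours (log2 fold change 1.70 ± 0.42, adjusted p = 0.0860). Cluster 17 made up 4.25% and 2.55% of the Xist-low cells of WT tumours and 4.57% and 3.04% of those of KO tumours. Fitted alone, it gave a log2 fold change of 0.96 ± 0.29 for Cd274, without a call (adjusted p = 0.0736). After subtraction of estimated free RNA the log2 fold change over all Xist-low cells was 1.56 ± 0.44 (adjusted p = 0.0736).

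Fibroblasts held 7.81 and 13.9 CPM in WT tumours against 35.2 and 49.2 CPM in KO tumours of Cd274 without overlap, and the log2 fold change of 2.07 ± 0.35 did not pass (adjusted p = 0.189). In NK cells Cd274 measured 57.1 and 72.1 CPM in WT tumours against 126 and 138 CPM in KO tumours and rose by 0.88 ± 0.25 on the log2 scale (adjusted p = 0.0484). The call was lost without WT tumour 1, KO tumour 1 or KO tumour 2 (adjusted p = 0.387, 0.0969 and 0.221). It was also lost with DESeq2, at a 10% mitochondrial limit, after free RNA subtraction and without large cells (adjusted p = 0.271, 0.0916, 0.150 and 0.0596), and held in 6 of 13 alternatives. CD8 T cells held 21.4 and 37.2 CPM in WT tumours against 63.3 and 77.8 CPM in KO tumours (log2 fold change 1.18 ± 0.33, adjusted p = 0.118), without overlap. Phagocyte markers were also higher in these lymphoid sums of KO tumours. In NK cells they stood at 2.54% and 1.57% in WT tumours and 5.62% and 3.61% in KO tumours of their phagocyte level, and Cd274 there stood at 69.1% and 41.1% against 41.3% and 47.4% of its phagocyte level. Cd86, a gene of the same phagocytes, stood at 0% and 3.11% against 2.77% and 3.11%. The part of phagocyte RNA in these NK cell values was not tested.

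Pdcd1, the PD-1 gene itself, showed no call in any of the 7 classes with a test. CD8 T cells held 232 and 269 CPM in WT tumours against 269.7 and 241 CPM in KO tumours. The groups overlapped almost fully, and the log2 fold change was -0.09 ± 0.21 (adjusted p = 0.882), with only 95 and 100 CD8 T cells in WT tumours, which leaves changes in either direction within its error. In sub-cluster T1, the largest CD8 group of KO tumours, WT tumour 1 was highest, with 534 and 331 CPM in WT tumours against 391 and 298 CPM in KO tumours. CD4 T cells held 209 and 186 CPM in WT tumours against 202 and 173 CPM in KO tumours and overlapped as well. Gamma-delta T cells gave 222 and 249 CPM in WT tumours against 361 and 599 CPM in KO tumours without overlap, and the log2 fold change of 0.96 ± 0.31 fell short of the call (adjusted p = 0.0558). NK cells held 23.8 and 0 CPM in WT tumours against 38.4 and 46.9 CPM in KO tumours. These groups did not overlap (log2 fold change 1.56 ± 0.53, adjusted p = 0.10). Sub-cluster T2, the largest NK group, held 0 and 0 Pdcd1 UMIs in WT tumours against 0 and 3 in KO tumours. In NK sub-cluster T7 the groups overlapped, with 92.8 and 0 CPM in WT tumours against 78.6 and 47.7 CPM in KO tumours. The log2 fold change there was 0.22 ± 0.62 (adjusted p = 0.910). Phagocytes held 0.264 and 0.170 CPM in WT tumours (2 and 1 UMIs) against 1.96 and 1.39 CPM in KO tumours (49 and 24 UMIs). Their groups did not overlap either (log2 fold change 2.93 ± 0.59, adjusted p = 0.0970). Summed T cell markers in phagocytes stood at 0.361% and 0.400% against 0.834% and 0.550% of their level in T cells, WT tumours first. Pdcd1 in phagocytes stood at 0.153% and 0.0784% against 0.796% and 0.599% of its level in T cells. The part of T cell RNA in these phagocyte values was not tested. Regulatory T cells held 58.2 and 60.8 CPM in WT tumours against 52.1 and 32.2 CPM in KO tumours, where both KO tumours were the lower ones without a call (adjusted p = 0.609). After each cell was thinned to 1000 UMIs, Pdcd1 was seen in 24.2% and 20.4% of CD8 T cells in WT tumours and in 21.2% and 20.2% in KO tumours.

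The CD28 and CTLA-4 ligands were higher in antigen-presenting cells of KO tumours without reaching the call there. Of Cd80, phagocytes held 30.9 and 39.0 CPM in WT tumours against 64.3 and 51.1 CPM in KO tumours (log2 fold change 0.78 ± 0.21, adjusted p = 0.142). Of Cd86, they held 137 and 186 CPM in WT tumours against 277 and 235 CPM in KO tumours (log2 fold change 0.71 ± 0.22, adjusted p = 0.175). Neither overlapped between groups, in the class or in clusters 0, 4, 10 and 16 taken alone. Dendritic cells, the main primers of naive T cells, held 56.9 and 59.5 CPM in WT tumours against 132 and 124 CPM in KO tumours of Cd80. The log2 fold change was 1.15 ± 0.28 (adjusted p = 0.107), and for Cd86, at 253 and 279.6 CPM in WT tumours against 436 and 394 CPM in KO tumours, it was 0.64 ± 0.23 (adjusted p = 0.241). The dendritic sums rested on 44 to 133 cells per tumour. In mature dendritic cells, 9 to 36 per tumour, Cd86 overlapped between groups, with 281 and 58.5 CPM in WT tumours against 233 and 205 CPM in KO tumours. Conventional type 1 dendritic cells, 2 to 13 per tumour, overlapped for both genes. In the other dendritic cells both KO tumours were the higher ones, with 245 and 303 CPM in WT tumours against 545 and 422 CPM in KO tumours of Cd86, and 50.5 and 36.1 CPM against 136 and 110.04 CPM of Cd80. These parts were not tested.

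Cd28, the costimulatory receptor, lay higher in both KO tumours in CD8, CD4 and regulatory T cells and in NK cells, and passed the test in NK cells. CD8 T cells held 140.0 and 300.4 CPM in WT tumours against 481 and 384 CPM in KO tumours (log2 fold change 0.85 ± 0.31, adjusted p = 0.203), and WT tumour 1 was lowest by a wide margin. CD4 T cells showed the same order with 161 and 399 CPM in WT tumours against 644 and 599 CPM in KO tumours (adjusted p = 0.282). In regulatory T cells the groups came close, at 309 and 547 CPM in WT tumours against 649 and 582 CPM in KO tumours (log2 fold change 0.52 ± 0.28, adjusted p = 0.366).

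Ctla4, the inhibitory counterpart, did not show the order of Cd28 in T cells. Regulatory T cells, which depend on CTLA-4 to restrain priming, held 789.9 and 923 CPM in WT tumours against 753 and 686 CPM in KO tumours. Both KO tumours were the lower ones, with a log2 fold change of -0.32 ± 0.26 that did not pass (adjusted p = 0.589). CD8 T cells gave 154 and 266 CPM in WT tumours against 303 and 217 CPM in KO tumours and CD4 T cells 385 and 306 CPM in WT tumours against 641 and 326 CPM in KO tumours. Both pairs of groups overlapped, with log2 fold changes of 0.19 ± 0.28 and 0.45 ± 0.29 (adjusted p = 0.789 and 0.598). Gamma-delta T cells held 160.4 and 90.5 CPM in WT tumours against 99.2 and 52.1 CPM in KO tumours, with a log2 fold change of -0.84 ± 0.44 that did not pass (adjusted p = 0.291).

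Icos, the inducible costimulator, was above the WT tumours in both KO tumours in all 8 classes with a test, and passed in gamma-delta T, NK and Xist-low cells. Of these classes, phagocytes, fibroblasts and Xist-low cells held at most 10.1 CPM in any tumour, and the part of T cell RNA there was not tested. Gamma-delta T cells held 740.3 and 1119.9 CPM in WT tumours against 2020.2 and 1680.1 CPM in KO tumours, and Icos rose there by 0.89 ± 0.25 (adjusted p = 0.0274). Without WT tumour 1, WT tumour 2 or KO tumour 1 it did not pass (adjusted p = 0.558, 0.115 and 0.201), nor with DESeq2, without TMM scaling, with doublets kept or after free RNA subtraction (adjusted p = 0.290, 0.0904, 0.0991 and 0.0937), so that 6 of 13 alternatives held the call. CD8 T cells held 223 and 529 CPM in WT tumours against 1015 and 808 CPM in KO tumours. WT tumour 1 was lowest and KO tumour 1 highest, and the log2 fold change of 1.14 ± 0.34 did not pass (adjusted p = 0.131). Within CD8 sub-cluster T1 the values were 404 and 736 CPM in WT tumours against 1329 and 961 CPM in KO tumours (log2 fold change 0.85 ± 0.29, adjusted p = 0.315). In the cycling sub-cluster T8 they were 147 and 217 CPM in WT tumours against 557 and 439 CPM in KO tumours. Sub-cluster T8 held 49 of 95 and 19 of 100 CD8 T cells in WT tumours against 151 of 989 and 128 of 946 in KO tumours. CD4 and regulatory T cells gave 915 and 1123 CPM in WT tumours against 1681 and 1545 CPM in KO tumours and 1183 and 2058 CPM in WT tumours against 2491 and 2430.3 CPM in KO tumours, neither with a call (adjusted p = 0.366 and 0.436). After thinning to 1000 UMIs per cell, Icos was seen in 25.3% and 38.8% of CD8 T cells in WT tumours and 57.6% and 51.1% in KO tumours.

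The ICOS ligand gene Icosl lay lower in antigen-presenting cells of KO tumours, without a call. Phagocytes held 7.91 and 11.9 CPM in WT tumours against 6.11 and 5.80 CPM in KO tumours and dendritic cells 45.5 and 41.6 CPM in WT tumours against 21.6 and 31.1 CPM in KO tumours. Both KO tumours were the lower ones in both classes, and the log2 fold changes of -0.68 ± 0.29 and -0.76 ± 0.40 did not pass (adjusted p = 0.284 and 0.418). Fitted alone, phagocyte clusters 0 and 10 gave -0.78 ± 0.45 and -0.90 ± 0.41. Clusters 4 and 16 gave 0.44 ± 0.46 and -0.05 ± 0.43, and none of these passed. Mature and conventional type 1 dendritic cells overlapped for Icosl. The other dendritic cells held 50.5 and 50.5 CPM of Icosl in WT tumours against 19.1 and 24.6 CPM in KO tumours. Xist-low cells held 0.676 and 0.883 CPM in WT tumours against 2.41 and 1.63 CPM in KO tumours, where it rose by 1.30 ± 0.29 (adjusted p = 0.0471). The call was lost without WT tumour 1, KO tumour 1 or KO tumour 2 (adjusted p = 0.0740, 0.223 and 0.0971), and at a 10% mitochondrial limit or without large cells (adjusted p = 0.0513 and 0.0519). Large cells held 17.5% of the Xist-low UMIs of KO tumour 1. The difference between the effects in Xist-low cells and phagocytes was 1.95 on the log2 scale with adjusted p = 0.0222, tested after the opposite directions had been seen.

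NK cells, innate lymphocytes that kill without an antigen receptor of their own, held the clearest changes: Icos, Cd28 and Ctla4 rose together. Icos measured 73.7 and 89.4 CPM in WT tumours against 232 and 203 CPM in KO tumours and rose by 1.27 ± 0.23 on the log2 scale (adjusted p = 0.00483). Cd28 measured 88.0 and 98.1 CPM in WT tumours against 231 and 212 CPM in KO tumours and rose by 1.10 ± 0.21 (adjusted p = 0.00785). For Ctla4, 35.7 and 34.6 CPM in WT tumours against 126 and 106 CPM in KO tumours gave a rise of 1.57 ± 0.27 (adjusted p = 0.00483). The KO tumours lay more than 2-fold above the WT tumours for all 3 genes by CPM, and the 3 calls held in 13 of 13 alternatives, with adjusted p up to 0.0203, 0.0434 and 0.0260 in the order given. The 7 T cell markers summed to 1215 and 1402 CPM in WT tumours and 1276 and 1404 CPM in KO tumours, while the median log2 fold change of the 7 was -0.53 and 2 of them fell. The CD3 chain gene Cd3d measured 121 and 167 CPM in WT tumours against 62.8 and 56.1 CPM in KO tumours and fell (log2 fold change -1.42 ± 0.24, adjusted p = 0.00410). Cd3g, with 124 and 176 CPM in WT tumours against 64.1 and 51.2 CPM in KO tumours, fell too (log2 fold change -1.52 ± 0.24, adjusted p = 0.00352). The 6 NK markers summed to 2398 and 2469 CPM in WT tumours and 2277 and 2401 CPM in KO tumours, none of them with a call. At a 10% mitochondrial limit Cd3d and Cd3g did not pass (adjusted p = 0.812 and 0.225). All 4 cycling markers fell, from a sum of 642 and 257 CPM to 206 and 199 CPM, and 2 of 9 phagocyte markers rose. The part of these differences in the receptor values was not tested.

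The NK class held 3 sub-clusters, and for Icos, Cd28 and Ctla4 the order of the groups was the same in each. Sub-cluster T13 held only 12 and 5 cells in WT tumours against 33 and 29 in KO tumours, and was not fitted alone. Its WT tumour 2 sum held 4 Icos, 1 Cd28 and 1 Ctla4 UMIs. The share of all genes with this order was not taken for sub-clusters. Sub-cluster T2, with Eomes and Klrb1c and with Trac, the T cell receptor alpha constant gene, at 17.7 and 18.5 CPM in WT tumours against 27.6 and 21.2 CPM in KO tumours, held 48.7 and 55.6 CPM in WT tumours against 178 and 146 CPM in KO tumours of Icos. The groups lay far apart, and in a fit of T2 alone Icos rose by 1.48 ± 0.31 (adjusted p = 0.00733). Ctla4 in T2 measured 13.3 and 13.9 CPM in WT tumours against 61.7 and 70.9 CPM in KO tumours and rose by 2.12 ± 0.49 (adjusted p = 0.0151). In T2 alone Icos did not pass without WT tumour 1 or KO tumour 1 (adjusted p = 0.0678 and 0.463), nor Ctla4 without WT tumour 1, KO tumour 1 or KO tumour 2 (adjusted p = 0.0950, 0.463 and 0.123). Cd28 in T2 measured 88.6 and 102 CPM in WT tumours against 183 and 177 CPM in KO tumours, without overlap, and gave a log2 fold change of 0.77 ± 0.26 (adjusted p = 0.0961). Sub-cluster T7 held little Eomes and, in WT tumours, far more Cd3d (258 and 566 CPM in WT tumours against 79.8 and 35.3 CPM in KO tumours). Icos there measured 134 and 169.8 CPM in WT tumours against 318 and 277 CPM in KO tumours, and its log2 fold change of 0.77 ± 0.31 did not pass (adjusted p = 0.182). Ctla4 in T7 measured 82.5 and 90.6 CPM in WT tumours against 192 and 164 CPM in KO tumours. Cd28 and Ctla4 in T7 gave log2 fold changes of 1.06 ± 0.33 and 0.85 ± 0.37, without a call (adjusted p = 0.0790 and 0.227). These fits were chosen after the data were seen. Sub-cluster T7 held 31 of 157 and 24 of 113 NK cells in WT tumours. It held 175 of 471 and 148 of 479 in KO tumours. The part of this shift in the values of the whole NK class was not tested.

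**Figure D4:**
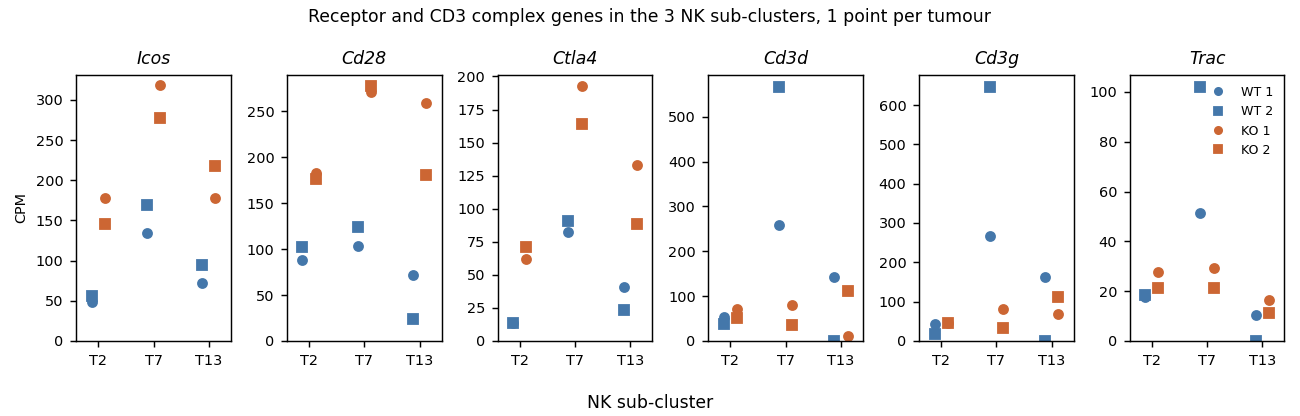
Levels in CPM (vertical axes, each from 0) of 3 receptor genes and 3 genes of the T cell receptor complex in NK sub-clusters T2, T7 and T13 (horizontal axes), 1 point per tumour. Icos, Cd28 and Ctla4 of KO tumours lie above the WT tumours in each sub-cluster, where T13 rests on 12 and 5 cells in WT tumours. Cd3d and Cd3g are highest in sub-cluster T7 of the WT tumours, at 258 and 566 CPM for Cd3d.

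After each NK cell was thinned to 1000 UMIs, Icos was seen in 5.88% (95% Clopper-Pearson interval 2.72% to 10.9%, counting error only) and 7.34% (3.22% to 14.0%) of cells in WT tumours, and in 18.0% (14.6% to 21.8%) and 17.5% (14.2% to 21.3%) in KO tumours. Without thinning the shares were 14.0% and 15.9% against 47.1% and 36.3%, at median depths of 2057 and 2390 UMIs against 3818 and 2692. Cd28 was seen in 8.50% and 9.17% against 19.9% and 18.8%, and Ctla4 in 2.61% and 2.75% against 8.35% and 8.12%. In Xist-low cells, which should lack these receptors, the share with an Icos UMI was 0.0356% to 0.655% after the same thinning.

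Receptor genes also passed the test in Xist-low cells, at levels near those that T cell markers reached in the same sums. Icos measured 0.789 and 0.452 CPM in WT tumours against 5.69 and 3.09 CPM in KO tumours, with a log2 fold change of 2.73 ± 0.39 (adjusted p = 0.0218). Cd28 measured 0.312 and 0.257 CPM in WT tumours against 2.50 and 1.07 CPM in KO tumours, with 2.55 ± 0.44 (adjusted p = 0.0301). The 7 T cell markers summed to 8.31 and 3.60 CPM in WT tumours and 38.1 and 19.5 CPM in KO tumours, which was 0.188% and 0.0729% against 0.561% and 0.290% of their level in T cells. For Icos the same shares were 0.124% and 0.0474% against 0.450% and 0.278%, and for Cd28 0.169% and 0.0790% against 0.492% and 0.255%. None of 13 T and NK cell markers was at 0 in any of these sums. The receptor genes thus stood at about the same small fraction of their T cell level as the T cell markers, and the part of T cell RNA in these sums was not tested. After subtraction of estimated free RNA too few UMIs of either gene remained for the test, and without KO tumour 1 neither passed (adjusted p = 0.0521 for Icos and 0.104 for Cd28). Xist-low cells also held more UMIs in KO tumours, with medians of 11926 and 11720.5 per cell in WT tumours and 38820 and 31629 in KO tumours.

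**Figure D5:**
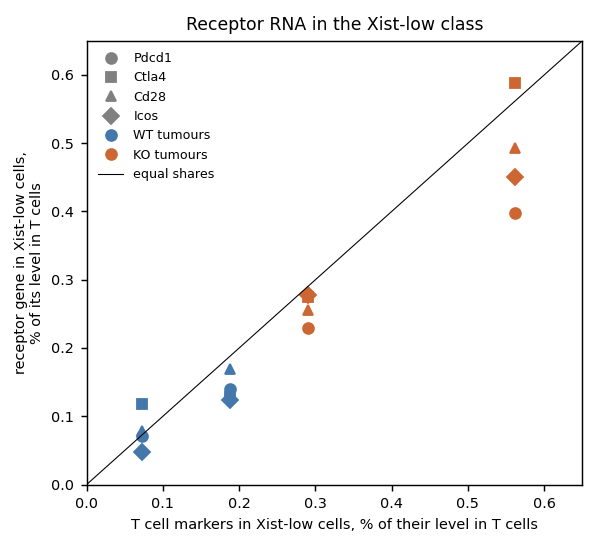
Level of the 4 receptor genes in Xist-low cells as a percent of their level in T cells of the same tumour (vertical axis) against the same percent for the 7 summed T cell markers (horizontal axis), 1 point per gene and tumour. All points lie under 0.6% on both axes and close to the line of equal shares, with the KO tumours to the upper right.

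Other genes of the pathway were read from 5 lists with 69 genes in all. Over 522 tests of a list gene in a class, 50 rose and 3 fell, and without large cells 23 rose and 2 fell of 518, the neutrophil calls going from 24 to 0. Of all tests of a gene in a class, 2.87% rose in the 10 classes and 1.47% in the 9 without neutrophils. Of the 50 rises 23 were in neutrophils, in 35 tests, where 19.1% of all genes rose. Among 20 genes of antigen receptor and CD28 signalling, 17 of 158 tests rose and 3 fell. In Xist-low cells 9 of 20 rose, where 4.01% of all genes rose, with a list median of 1.43 against -0.01 over all genes. In the same sums 4 of 7 T cell markers rose, with a median log2 fold change of 2.20 and the summed levels given above, and Cd3d and Cd3g stand in both lists. The part of T cell RNA in this count was not tested. Apart from Malt1, these measured at most 5.75 CPM in any tumour. Malt1, a protease of NF-kB signalling that many cells express, measured 13.8 and 15.1 CPM in WT tumours against 35.5 and 37.9 CPM in KO tumours there (log2 fold change 1.30 ± 0.12). In NK cells 1 of 18 rose and 2 fell: Malt1 measured 381 and 384 CPM in WT tumours against 897 and 1002 CPM in KO tumours and rose by 1.15 ± 0.19 (adjusted p = 0.00423), while Cd3d and Cd3g fell.

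Brakes on antigen receptor signalling had 10 rises and 0 falls in 124 tests, 8 of the 10 in neutrophils, where 19.1% of all genes rose, and 2 rises without large cells. Outside neutrophils, Cblb, a ubiquitin ligase that raises the threshold for activation, rose in CD4 T cells with 112 and 74.2 CPM in WT tumours against 228 and 237 CPM in KO tumours (log2 fold change 1.36 ± 0.28, adjusted p = 0.0497). It passed in 4 of 12 alternatives, and not without WT tumour 2, KO tumour 1 or KO tumour 2 (adjusted p = 0.201, 0.902 and 0.903). The phosphatase gene Ptpn22 rose in regulatory T cells with 138 and 193 CPM in WT tumours against 322 and 336 CPM in KO tumours (log2 fold change 1.00 ± 0.28, adjusted p = 0.0413). It passed in 6 of 13 alternatives, and not without WT tumour 1, KO tumour 1 or KO tumour 2 (adjusted p = 0.644, 0.504 and 0.602). The list from interferon-gamma to PD-L1 had 12 rises and 0 falls in 118 tests, and 5 rises without large cells. Of the 12 rises 6 were in neutrophils, where 19.1% of all genes rose. In Xist-low cells 3 of the 13 genes of this list rose, where 4.01% of all genes rose. Socs1, an interferon-induced feedback inhibitor, measured 26.4 and 33.4 CPM in WT tumours against 101 and 113 CPM in KO tumours (adjusted p = 0.0104). Its relative Socs3 measured 46.6 and 53.0 CPM in WT tumours against 103 and 107 CPM in KO tumours (adjusted p = 0.0136). The transcription factor gene Irf1 measured 119 and 222 CPM in WT tumours against 404 and 405 CPM in KO tumours (adjusted p = 0.0491), and did not pass without KO tumour 1 or KO tumour 2 (adjusted p = 0.124 and 0.130), at a 10% mitochondrial limit or without large cells (adjusted p = 0.0517 and 0.0511). Stat3 rose in NK cells by 1.31 ± 0.19, in regulatory T cells by 1.06 ± 0.27 and in gamma-delta T cells by 0.97 ± 0.29 (adjusted p = 0.00184, 0.0276 and 0.0377). In NK cells it passed in 13 of 13 alternatives, in regulatory T cells in 7 of 13, not without WT tumour 1, KO tumour 1 or KO tumour 2 (adjusted p up to 0.585), and in gamma-delta T cells in 5 of 13, not without WT tumour 1, WT tumour 2 or KO tumour 1 (adjusted p up to 0.558). In phagocytes 0 of 13 were called, with a list median of 0.34, where 0 of all 13496 genes tested were called. Ifng itself, the interferon-gamma gene, measured 693 and 2018 CPM in WT tumours against 477 and 645 CPM in KO tumours in CD8 T cells, where both KO tumours were the lower ones without a call (log2 fold change -1.42 ± 0.40, adjusted p = 0.116).

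Factors that drive these receptors in T cells had 10 rises and 0 falls in 89 tests, and 6 rises without large cells. Of the 10 rises 3 were in neutrophils, where 19.1% of all genes rose. In NK cells 4 of 10 rose, where 2.67% of all genes rose, with a list median of 0.74. Maf measured 35.7 and 46.1 CPM in WT tumours against 116 and 131 CPM in KO tumours (log2 fold change 1.45 ± 0.27, adjusted p = 0.00653). Ikzf2, Nfatc1 and Tcf7 rose by 1.03 ± 0.21, 1.06 ± 0.22 and 0.90 ± 0.22 (adjusted p = 0.00854, 0.0101 and 0.0263). Ikzf2 and Tcf7 did not pass without KO tumour 1 (adjusted p = 0.0583 and 0.261), Nfatc1 without KO tumour 2 (adjusted p = 0.0941), and Maf and Tcf7 at a 10% mitochondrial limit (adjusted p = 0.0865 and 0.218). Tcf7 also did not pass with DESeq2 or after free RNA subtraction (adjusted p = 0.119 and 0.0800). Nfatc2, a calcium-dependent factor, rose in gamma-delta T cells with 49.4 and 33.9 CPM in WT tumours against 147 and 127 CPM in KO tumours (adjusted p = 0.0488), passed in 3 of 12 alternatives, and did not pass when any 1 tumour was left out (adjusted p = 0.540, 0.348, 0.529 and 0.332). In CD8 T cells 0 of 11 were called, where 0.62% of all genes were called. The list of other B7 and CD28 family molecules had 1 rise in 33 tests, Vsir in neutrophils with 99.9 and 84.7 CPM in WT tumours against 235 and 194 CPM in KO tumours over all cells of the class (adjusted p = 3.81e-04), and not without the large cells, WT tumour 2 or KO tumour 1 (adjusted p = 0.375, 0.0537 and 0.0643).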

How the data were processed

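Single cells of 2 WT and 2 KO tumours were read from the deposited raw UMI counts, 1 gene by barcode matrix per tumour, with values as the authors deposited them. Per the file headers the matrices were written by Cell Ranger 6.1.2, while the labels' protocols name another release, and per the submitters' processing notes the build was mm10 and Seurat 5.1.0 was used downstream. Kept barcodes had a minimum of 300 genes and 500 UMIs, with mitochondrial UMIs up to 20%, and cells with the highest doublet scores (0.8% per 1000 barcodes) were removed. Cells were clustered with scanpy 1.11.5 (2000 variable genes without the 9 members, 30 components, 15 neighbours, Leiden resolution 1) and named from marker genes. UMIs were summed per tumour and class, in 10 classes that held 20 or more cells per tumour, and tested with edgeR 4.0.16 (TMM, low-count filter, quasi-likelihood test) in a separate fit per class, with Benjamini-Hochberg adjustment over all its genes. Alternatives used DESeq2 1.42.0, other scaling, filters, doublet handling, clustering and free RNA subtraction, and left out each tumour. Counts were also simulated from the trend of spread against level alone, with changes set only in genes at a mean of 10 CPM or more. Of genes so changed 2-fold, the test recovered 44.8% in phagocytes, 46.3% in CD8 T cells and 23.4% in neutrophils. Genes below that level, such as Pdcd1 and Ctla4 in phagocytes, were not covered. The members and gene lists were chosen with earlier results of these data known. All 9 members are named, and of each pathway list up to 4 called genes per class with the smallest adjusted p, except 1 that is not reported here.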

Additional observations from a re-analysis of the deposited data

Results flagged for a closer look

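Effects of opposite direction in a pair of classes, with every tumour of the groups apart in both, were tested in one fit of both classes over all genes, after the directions had been seen. Ctla4 was higher in KO tumours in NK cells and lower in regulatory T cells, and the difference of the log2 fold changes was 1.80 ± 0.32 (edgeR adjusted p = 4.10e-04). For Ctla4 in Xist-low cells against regulatory T cells it was 1.72 ± 0.29 (adjusted p = 1.65e-06). Ctla4 in Xist-low cells stood at 0.128% and 0.118% against 0.588% and 0.275% of its level in T cells, WT tumours first. T cell markers in the same sums stood at 0.188% and 0.0729% against 0.561% and 0.290%. The part of T cell RNA in this difference was not tested. Icosl differed by 1.95 ± 0.32 between Xist-low cells and phagocytes (adjusted p = 0.0222).

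The other differences of this kind did not pass. For Icosl they were 2.00 between Xist-low and dendritic cells (adjusted p = 0.237), 1.87 between CD4 T cells and phagocytes (adjusted p = 0.594) and 1.39 between CD4 T and dendritic cells (adjusted p = 0.984). For Pdcd1, against regulatory T cells, they were 2.22 for Xist-low cells (adjusted p = 0.235), 3.25 for phagocytes (adjusted p = 0.108), 1.52 for gamma-delta T cells (adjusted p = 0.587) and 1.88 for NK cells (adjusted p = 0.394). The part of T cell RNA in the Pdcd1 values of Xist-low cells and phagocytes was not tested.

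Signal was also seen in cells outside the comparisons. In endothelial cells, too few in WT tumour 2 for a test, Cd274 measured 35.1 and 34.6 CPM in WT tumours and 84.4 and 126 CPM in KO tumours, a ratio of mean CPM of 3.02 from 13, 4, 67 and 99 UMIs. In T or NK cells left unnamed, the ratio of mean KO to mean WT CPM was 3.59 for Cd274, 2.48 for Pdcd1lg2, 2.41 for Cd86, 1.61 for Cd28 and 1.43 for Icos.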

How the results depend on the processing

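The count of 10 member calls became 33 without a filter on low counts, 16 with doublets kept, 4 after free RNA subtraction and 6 without large cells. It ranged from 5 (without KO tumour 1) to 23 (without WT tumour 2) when 1 tumour was left out, where a lone tumour is assumed to vary like the others. With the tumour number as a replicate block it was 17. The numbers are not said to pair the tumours, and deviations of same-numbered tumours correlated at -0.59 in fibroblasts, -0.32 in phagocytes and between -0.086 and 0.0078 elsewhere. With crossed numbers in the block, chosen after seeing the data, it was 19. Calls over all genes moved as well. Neutrophil genes called as higher went from 1386 of 7266 to 19 of 5137 with doublets kept. They were 18 of 6202 after free RNA subtraction and 35 of 4757 without large cells. Phagocyte genes called as higher went from 0 of 13496 to 880 of 25049 without a filter and 664 of 13604 with doublets kept. With crossed numbers, 2059 of 13496 phagocyte genes passed in either direction. The 9 calls over all cells ranged from 7 to 9 when 1 tumour was left out and were 8 with the block. The 53 list calls became 126 without a filter and 25 without large cells, ranged from 12 (without KO tumour 1) to 112 (without WT tumour 2), and were 57 with the block.

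Of 814 member values under alternatives, 39 had the other sign, none of them called. The Cd274 effect in neutrophils against phagocytes became -0.28 without TMM, -1.02 with doublets kept, -0.60 at resolution 2, -0.12 after free RNA subtraction and -0.50 without large cells, and ranged from -0.55 to 0.55 when 1 tumour was left out. Such ranges were -0.72 to 0.19 for Cd274 in gamma-delta T cells, -0.79 to 0.093 for Pdcd1lg2 in phagocytes, -0.13 to 0.058 for Pdcd1lg2 in dendritic cells, -0.19 to 0.79 for Ctla4 in CD8 T cells, -0.061 to 0.83 for Ctla4 in CD4 T cells and -0.23 to 0.17 for Pdcd1 in CD8 T cells. Without a filter, Cd274 in gamma-delta T cells became 0.040, Pdcd1lg2 in dendritic cells 0.053 and Pdcd1 in CD8 T cells 0.036. With doublets kept, Pdcd1lg2 in dendritic cells became 0.16 and Pdcd1 in CD8 T cells 0.32, and the latter was 0.029 without TMM and 0.19 at a 10% mitochondrial limit. The cause was not tested. WT tumours held few T cells, which limits the depth of their sums.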
